A study of Mus musculus with 9 samples.

Results

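The matrix metalloproteinases (Mmp genes), the ADAMTS proteases (Adamts genes) and their tissue inhibitors (Timp genes) are described here across 9 RNA-seq libraries of the mouse eye. Members were all protein-coding rows of the deposited expression table whose symbol is Mmp, Adamts or Timp followed by a number, which gave 45 of 54532 genes: 22 Mmp, 19 Adamts and 4 Timp genes. The rule reads symbols and no expression value, but the family itself was picked with earlier results of these data known. The study concerns a hydrogel given into the eye with ranibizumab, an antibody fragment against vascular endothelial growth factor A, in a model of age-related macular degeneration. RNA came from flat mounts of choroid and retina of C57BL/6 mice, in 3 groups of 3 libraries. The BetP-Gel@Ran libraries were taken 3 months after injection into the vitreous; their treatment field names the gel BetP-Gel without ranibizumab, and the labels do not say whether these mice had CNV. The CNV libraries, titled as wet AMD, carry the usual abbreviation of choroidal neovascularisation, the growth of new vessels from the choroid. The Untreated libraries came from mice with no treatment. No sampling time is given for the CNV and Untreated groups, so time and treatment cannot be told apart, and the labels give no age, sex or way of inducing CNV. Whether the 3 libraries of a group stem from different mice is not stated, so the p-values speak only for the spread among these samples, and that spread could be technical.

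Metalloproteinases are zinc enzymes that are made as inactive proforms and, once activated, cut collagens, proteoglycans, elastin and other proteins outside the cell. TIMP proteins bind their active site and block it. ADAMTS enzymes are secreted relatives that trim procollagens, cleave proteoglycans such as aggrecan and versican, or act on fibrillin microfibrils. In the back of the eye these enzymes and inhibitors turn over Bruch's membrane, the sheet between choroid and retinal pigment epithelium that new vessels cross in wet macular degeneration. Mutations of the human TIMP3 gene cause Sorsby fundus dystrophy, an inherited disease with choroidal neovascularisation.

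Each library had between 16990118 and 18753737 reads assigned to genes, and pairs of libraries within a group differed beyond sampling noise (chi-square per gene 8.34 to 43.7). Markers of the labelled tissue were present: 8 genes of the retinal pigment epithelium summed to 710 to 1146 FPKM per library and 8 rod photoreceptor genes to 1014 to 3884 FPKM. The 8 markers of corneal and surface epithelium summed to more, 9205 to 20589 FPKM, and 8 skeletal muscle genes reached 4244 to 4855 FPKM in Untreated libraries, so genes of tissues other than choroid and retina were present. The 8 lens genes summed to 732, 2955 and 1005 FPKM in the BetP-Gel@Ran libraries, 56.8, 13.8 and 74.9 FPKM in the CNV libraries and 325, 238 and 11289 FPKM in the Untreated libraries, so CNV libraries held less than all others and Untreated 3 stood apart from its group. In CNV against Untreated 4 of the 8 were called lower and in BetP-Gel@Ran against CNV 3 were called higher, and the part of this tissue content in the differences of the members was not tested.

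Values are FPKM, fragments per kilobase of transcript and per unit of mapped reads, and levels of different genes are compared only on that per-length scale. Genes were tested where at least 3 of the 9 libraries reached 1 FPKM, which left 14086 genes, and log2 fold changes are those of FPKM + 1 in limma, with their SE and with p-values adjusted by Benjamini-Hochberg over all tested genes. A gene was called at an adjusted p under 0.05, and a value in brackets after a left-out library is the adjusted p without that library. Of the 45 members 19 were tested: 12 Mmp, 4 Adamts and 3 Timp genes. Mmp12 and Mmp13 passed only through the CNV libraries and Mmp11 only through the BetP-Gel@Ran and CNV libraries, so counts over the tested members are descriptions of them and not of the family.

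In CNV libraries most tested members were at a higher level than in Untreated libraries, among them the inhibitor gene Timp1, the macrophage elastase Mmp12, the collagenase Mmp13 and the gelatinase Mmp9. Of the 19 tested members 11 were called higher (Timp1, Mmp12, Mmp13, Mmp9, Mmp19, Mmp3, Adamts1, Adamts5, Mmp14, Mmp11 and Mmp15), 4 lower (Mmp23, Adamts2, Timp3 and Adamts10) and 4 were not called (Timp2, Mmp2, Mmp27 and Mmp28). Across all tested genes 22.5% were called higher and 22.1% lower in this comparison, and the median log2 fold change was 0.60 over the tested members and 0.01 over all tested genes. Scaled to the library's own read total instead, 12 members were called higher and 1 lower, and all genes split into 3977 higher and 2406 lower, against 3166 and 3115 with the deposited scaling. Without CNV 2, or without Untreated 3, 2 members were called lower.

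Against CNV, BetP-Gel@Ran libraries held less of 6 members (Timp1, Mmp12, Mmp13, Mmp9, Mmp15 and Mmp19), more of 0, and 13 were not called. In this comparison 5.81% of all tested genes were called higher and 8.27% lower, and the median log2 fold change was -0.15 over the tested members and 0.00 over all genes. With 1 library left out, 3 to 7 members were called lower, the fewest without CNV 2, and all genes called higher ranged from 126, without CNV 1, to 1457, without CNV 3.

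Against Untreated, the BetP-Gel@Ran libraries held more of 6 members (Mmp3, Mmp14, Adamts5, Mmp19, Mmp12 and Mmp11) and less of Adamts10, and 12 were not called. The shares of all tested genes were 16.1% higher and 18.1% lower, and the median log2 fold change was 0.26 over the tested members and -0.01 over all genes. The count of members called higher was 3 without BetP-Gel@Ran 3, without Untreated 1 or without Untreated 2. CNV libraries enter 2 of the 3 comparisons and Untreated libraries enter 2, so the comparisons are not independent of each other.

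**Figure D1:**
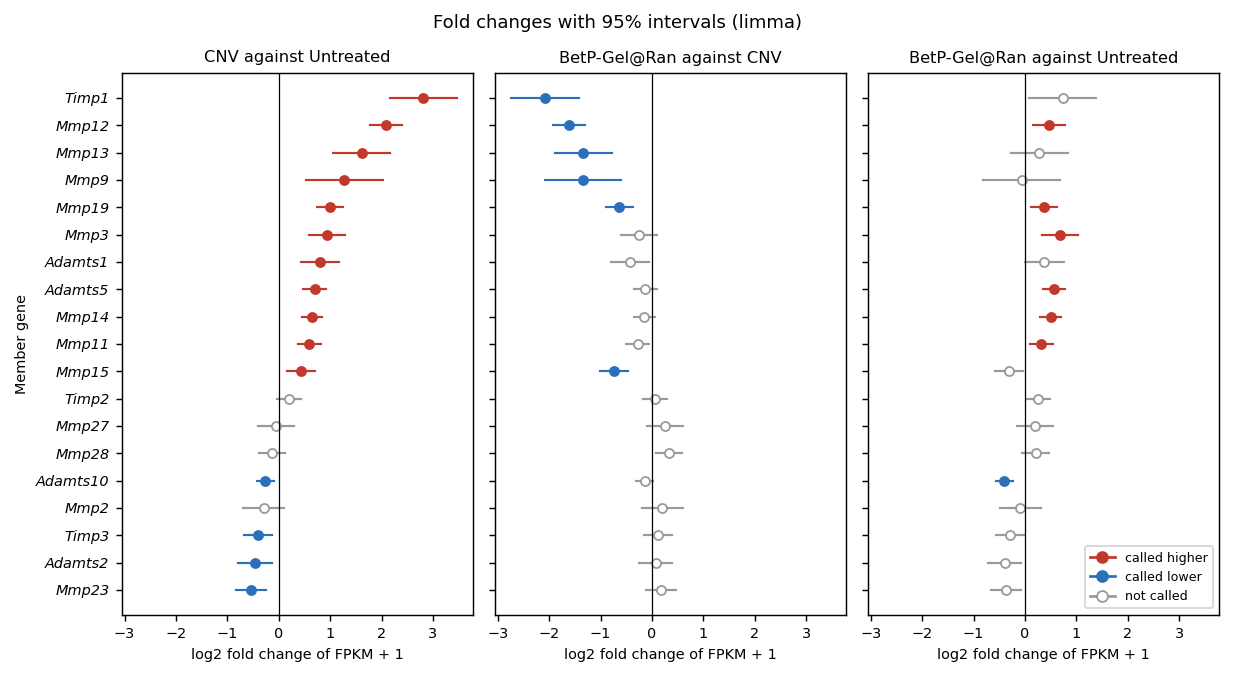
Log2 fold change of FPKM + 1 with its 95% interval for the 19 tested members in the 3 comparisons, ordered by the CNV against Untreated value. Filled red points were called higher and filled blue points lower, and open grey points were not called. On this scale Timp1 lies farthest from 0 in CNV against Untreated (2.82) and in BetP-Gel@Ran against CNV (-2.08); on reads, without the added 1 FPKM, Mmp12 (5.17 and -2.88) and Mmp13 (4.70 and -2.81) lie farther out than Timp1 (2.998 and -2.17).

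Among the inhibitors, Timp1 (ENSMUSG00000001131, mm10 chrX:20870166-20874735) codes for a secreted inhibitor of most soluble metalloproteinases. It stood at 14.3, 10.5 and 8.49 FPKM in the BetP-Gel@Ran libraries, 57.3, 69.2 and 29.8 FPKM in the CNV libraries and 5.64, 5.77 and 7.05 FPKM in the Untreated libraries. The CNV libraries were above all others, with CNV 3 the lowest of them, and the BetP-Gel@Ran libraries lay between the groups without overlap. Timp1 was higher in CNV than in Untreated libraries by 2.82 ± 0.29 log2 units (limma, adjusted p = 0.000129) and lower in BetP-Gel@Ran than in CNV libraries, at -2.08 ± 0.29 (adjusted p = 0.00673). BetP-Gel@Ran against Untreated gave 0.73 ± 0.29 and was not called (limma, adjusted p = 0.0813), although no library overlapped. Without CNV 3 the same difference was called in limma, at an adjusted p of 0.0115, and with only these groups in the fit, at 0.0166. The gene lies opposite Syn1, a neuronal gene of up to 13.4 FPKM, and the library kit does not mark the strand, so reads of the overlap cannot be told apart.

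Timp2 was the most abundant member in every library. Its protein inhibits metalloproteinases and, with the Mmp14 protein, takes part in activating the Mmp2 proform. Its levels were 122, 134 and 140.0 FPKM in the BetP-Gel@Ran libraries, 128, 112 and 143 FPKM in the CNV libraries and 109.8, 104 and 117 FPKM in the Untreated libraries. The CNV libraries overlapped both other groups and the BetP-Gel@Ran libraries were all above the Untreated ones, yet no comparison was called: the intervals of the log2 fold change were -0.03 to 0.43 for CNV against Untreated, -0.18 to 0.29 for BetP-Gel@Ran against CNV and 0.02 to 0.49 for BetP-Gel@Ran against Untreated. With CNV 2 left out, the CNV against Untreated difference was called at 0.29 (limma, adjusted p = 0.0469), and with own-total scaling both CNV (0.0368) and BetP-Gel@Ran (0.0342) were called higher than Untreated.

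Timp3, whose protein stays bound to the matrix and also blocks ADAM and ADAMTS enzymes, had 21.6, 28.9 and 26.3 FPKM in the BetP-Gel@Ran libraries, 21.5, 23.5 and 25.5 FPKM in the CNV libraries and 28.4, 30.6 and 35.4 FPKM in the Untreated libraries. All CNV libraries were below all Untreated libraries, and the BetP-Gel@Ran libraries overlapped both. The fall in CNV against Untreated was -0.40 ± 0.12 (limma, adjusted p = 0.0219), and the call was lost without CNV 1 (0.0778), CNV 2 (0.0509) or Untreated 3 (0.0737) and with own-total scaling (0.0596). BetP-Gel@Ran against CNV gave 0.11 ± 0.12 (limma, adjusted p = 0.55). Timp4 was below the filter, at 11, 16 and 14 reads in the BetP-Gel@Ran libraries, 14, 9 and 23 in the CNV libraries and 35, 45 and 33 in the Untreated libraries. On reads it was lower in CNV than in Untreated libraries, at -1.49 log2 units (limma voom, adjusted p = 0.00426), and lower in BetP-Gel@Ran than in Untreated libraries, at -1.48 (limma voom, adjusted p = 0.00742). Timp4 lies opposite Syn2.

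The summed level of the 4 inhibitor genes was 158, 174 and 175 FPKM in BetP-Gel@Ran libraries, 207, 204 and 199 FPKM in CNV libraries and 144, 141 and 159 FPKM in Untreated libraries. Its make-up differed more than its size: Timp1 was 6.64 ± 2.17% of the sum in BetP-Gel@Ran, 25.5 ± 9.63% in CNV and 4.14 ± 0.261% in Untreated libraries (mean ± SD, n = 3). Timp3 took 15.1 ± 1.45%, 11.6 ± 1.23% and 21.2 ± 1.31% in the same order of groups.

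Mmp3, or stromelysin-1, an enzyme that cuts proteoglycans and activates other metalloproteinase proforms, was the most abundant protease of the family in every library. It lay at 78.3, 73.7 and 95.7 FPKM in the BetP-Gel@Ran libraries, 79.8, 94.4 and 123 FPKM in the CNV libraries and 53.0, 46.2 and 53.1 FPKM in the Untreated libraries. Both other groups were above the Untreated libraries in every library, and they overlapped each other, with CNV 3 the highest. The rise was 0.93 ± 0.16 in CNV against Untreated (limma, adjusted p = 0.00133) and 0.69 ± 0.16 in BetP-Gel@Ran against Untreated (limma, adjusted p = 0.00955). BetP-Gel@Ran against CNV was not called, with an interval of -0.60 to 0.11 log2 units. Mmp3 alone made up 49.9 ± 2.74% of the summed Mmp level in BetP-Gel@Ran, 50.1 ± 7.59% in CNV and 38.8 ± 1.55% in Untreated libraries, and that sum was 164, 151 and 180.5 FPKM, 189, 185 and 215 FPKM and 135, 124 and 132 FPKM in the libraries of those groups.

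**Figure D2:**
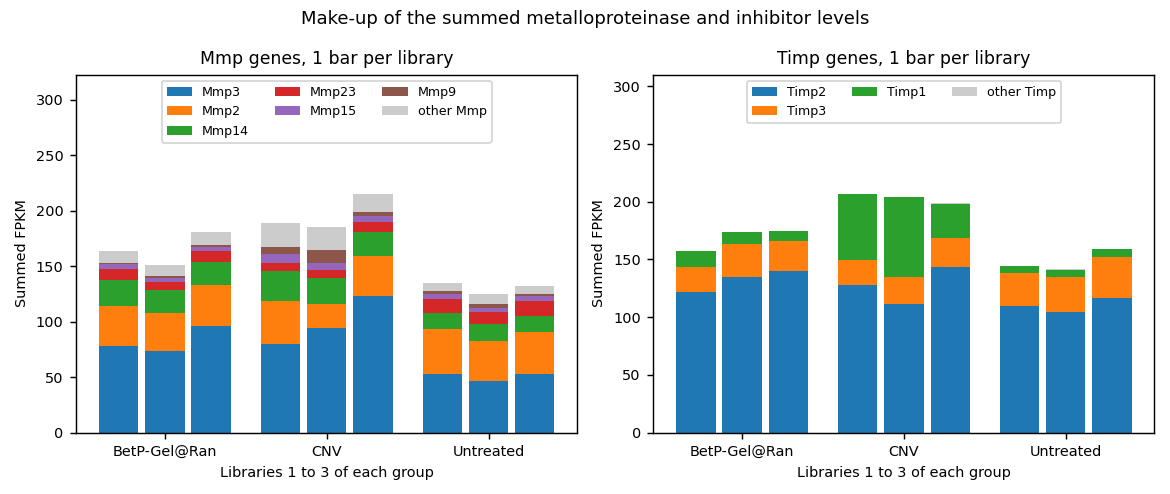
Summed FPKM of the 22 Mmp genes (left) and the 4 Timp genes (right) in each library, stacked by gene, with 3 bars per group. Mmp3 is the largest block of the Mmp bars and Timp2 of the Timp bars, and the green Timp1 block is widest in the CNV bars.

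Of the gelatinases, which degrade denatured and basement membrane collagen, Mmp9 was called and Mmp2 was not. Mmp9 (mm10 chr2:164940780-164955850) had 1.53, 2.24 and 2.43 FPKM in the BetP-Gel@Ran libraries, 6.70, 11.8 and 3.65 FPKM in the CNV libraries and 1.96, 3.01 and 1.72 FPKM in the Untreated libraries. The CNV libraries were above all others and spread widely, with CNV 2 above CNV 1 and CNV 3, while the BetP-Gel@Ran and Untreated libraries overlapped. CNV against Untreated gave 1.28 ± 0.33 (limma, adjusted p = 0.0122) and BetP-Gel@Ran against CNV gave -1.34 ± 0.33 (limma, adjusted p = 0.0316). The fall in BetP-Gel@Ran was not called on reads, at -1.69 (limma voom, adjusted p = 0.0774), nor without BetP-Gel@Ran 1 (0.0798), 2 (0.0818) or 3 (0.069), CNV 1 (0.09) or CNV 2 (0.0693). Mmp2, at 35.7, 34.2 and 37.2 FPKM in the BetP-Gel@Ran libraries, 38.5, 21.6 and 35.4 FPKM in the CNV libraries and 40.1, 36.4 and 37.7 FPKM in the Untreated libraries, was called in no comparison; CNV 2 was low and the other 8 libraries lay close together. Its intervals were -0.69 to 0.11 for CNV against Untreated and -0.20 to 0.60 for BetP-Gel@Ran against CNV.

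Collagenases cut intact fibrillar collagen. Mmp13 (collagenase-3) was at 0.4697, 0.207 and 0.330 FPKM in the BetP-Gel@Ran libraries, 3.72, 2.75 and 1.16 FPKM in the CNV libraries and 0.0220, 0.190 and 0.0927 FPKM in the Untreated libraries. It was far higher in each CNV library than in any other, and the remaining groups lay close to 0 and did not overlap. The log2 fold change was 1.62 ± 0.25 in CNV against Untreated (limma, adjusted p = 0.000767) and -1.34 ± 0.25 in BetP-Gel@Ran against CNV (limma, adjusted p = 0.013), the second of which was lost without BetP-Gel@Ran 2 (0.0523) or CNV 2 (0.0514). Adding 1 FPKM shrinks the change of so low a gene, and on reads, without that addition, CNV against Untreated came to 4.70 (limma voom, adjusted p = 0.00425). Mmp8, the neutrophil collagenase, was below the filter, with 8, 2 and 4 reads in the BetP-Gel@Ran libraries, 93, 196 and 44 in the CNV libraries and 2, 2 and 1 in the Untreated libraries. On reads it was 5.31 log2 units higher in CNV than in Untreated libraries (limma voom, adjusted p = 0.0113) and lower in BetP-Gel@Ran than in CNV libraries, at -4.25 (limma voom, adjusted p = 0.0313). Mmp1b, an interstitial collagenase copy, had 3 and 5 reads in CNV 1 and CNV 2 and 0 in the other 7 libraries; it lies opposite the end of Mmp12, and reads of the overlap cannot be told apart.

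Mmp12, the macrophage metalloelastase, which degrades elastin, had 0.339, 0.413 and 0.879 FPKM in the BetP-Gel@Ran libraries, 3.38, 4.13 and 3.58 FPKM in the CNV libraries and 0.138, 0.0545 and 0.128 FPKM in the Untreated libraries. CNV libraries were the highest, BetP-Gel@Ran libraries followed with BetP-Gel@Ran 3 above the other two, and Untreated libraries were lowest, with no overlap between groups. All comparisons were called: 2.08 ± 0.14 in CNV against Untreated (limma, adjusted p = 1.22e-05), -1.62 ± 0.14 in BetP-Gel@Ran against CNV (limma, adjusted p = 0.00069) and 0.46 ± 0.14 in BetP-Gel@Ran against Untreated (limma, adjusted p = 0.0283). The last call was lost without BetP-Gel@Ran 3 (0.0842) and without Untreated 1 (0.0591), 2 (0.0775) or 3 (0.0538). On reads the 3 log2 fold changes were 5.17, -2.88 and 2.29 (limma voom, adjusted p = 3.42e-06, 7.43e-05 and 0.00505).

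Of the remaining stromelysins, Mmp10 (stromelysin-2) had 8, 9 and 4 reads in the BetP-Gel@Ran libraries, 96, 19 and 18 in the CNV libraries and 7, 9 and 3 in the Untreated libraries, and CNV 1 held most of them. It was called higher in CNV than in Untreated libraries on reads, at 2.26 (limma voom, adjusted p = 0.0383), and BetP-Gel@Ran against CNV was not called, at -2.13 (limma voom, adjusted p = 0.0851). Mmp11 (stromelysin-3) stood at 1.15, 1.48 and 1.14 FPKM in the BetP-Gel@Ran libraries, 1.65, 1.83 and 1.72 FPKM in the CNV libraries and 0.848, 0.669 and 0.914 FPKM in the Untreated libraries, in 3 groups that did not overlap. Its rise in CNV against Untreated was 0.60 ± 0.10 (limma, adjusted p = 0.00116). BetP-Gel@Ran against Untreated gave 0.32 ± 0.10 (limma, adjusted p = 0.0332), lost without BetP-Gel@Ran 2 (0.113) or 3 (0.0572) and without Untreated 1 (0.0663) or 2 (0.101). Part of Mmp11 lies opposite Chchd10, a mitochondrial gene of up to 64.5 FPKM. The matrilysin Mmp7 had 1 to 4 reads in each BetP-Gel@Ran and CNV library and 0 in the Untreated libraries.

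**Figure D3:**
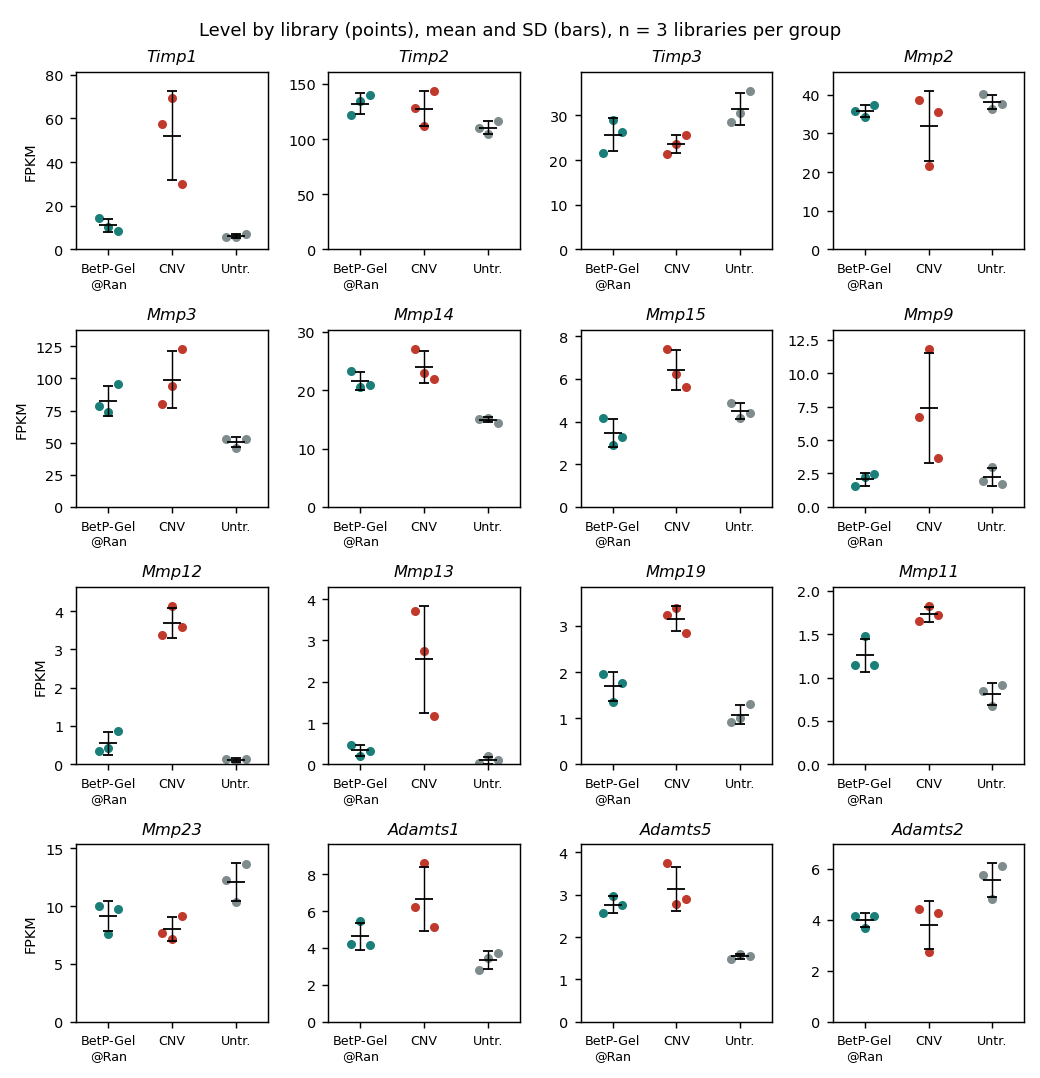
FPKM of 16 members in each library (points), with mean and SD (black bars) over the 3 libraries of BetP-Gel@Ran, CNV and Untreated, left to right, each panel on its own axis from 0. Timp1, Mmp9, Mmp12 and Mmp13 are among the members higher in each CNV library than in any other. For Mmp3, Mmp14 and Adamts5, BetP-Gel@Ran and CNV libraries overlap and all are above Untreated. Timp1, Mmp12 and Mmp13 are also above Untreated in every BetP-Gel@Ran library.

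Membrane-type metalloproteinases work at the cell surface. Mmp14, the main activator of the Mmp2 proform and itself a collagenase, had 23.4, 20.5 and 20.8 FPKM in the BetP-Gel@Ran libraries, 27.1, 23.0 and 22.0 FPKM in the CNV libraries and 15.1, 15.2 and 14.4 FPKM in the Untreated libraries. As for Mmp3, the BetP-Gel@Ran and CNV libraries overlapped and all of them were above the Untreated ones. The rise was 0.65 ± 0.09 in CNV (limma, adjusted p = 0.000454) and 0.50 ± 0.09 in BetP-Gel@Ran libraries (limma, adjusted p = 0.00316), both against Untreated, and the interval of BetP-Gel@Ran against CNV was -0.35 to 0.05. Mmp15 was at 4.19, 2.92 and 3.27 FPKM in the BetP-Gel@Ran libraries, 7.42, 6.23 and 5.60 FPKM in the CNV libraries and 4.89, 4.16 and 4.42 FPKM in the Untreated libraries. Here the BetP-Gel@Ran libraries were the lowest, with BetP-Gel@Ran 1 inside the Untreated range, and the group was below CNV by -0.74 log2 units (limma, SE 0.12, adjusted p = 0.00996) and not called against Untreated, at -0.31 ± 0.12 (limma, adjusted p = 0.082; called without BetP-Gel@Ran 1, at 0.0287). The rise of Mmp15 in CNV against Untreated, 0.43 ± 0.12 (limma, adjusted p = 0.0191), was lost without CNV 1 (0.0707) or Untreated 2 (0.0649).

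The other 4 membrane-type genes were below the filter. Mmp24 had 46, 42 and 39 reads in the BetP-Gel@Ran libraries, 20, 13 and 17 in the CNV libraries and 59, 72 and 36 in the Untreated libraries, and it was lower in CNV than in Untreated, at -1.82 (limma voom, adjusted p = 0.000812), and higher in BetP-Gel@Ran than in CNV libraries, at 1.42 (limma voom, adjusted p = 0.0186). Part of it lies opposite BC029722. Mmp17 was also lower in CNV than in Untreated libraries, with 55, 70 and 58 reads in the BetP-Gel@Ran libraries, 37, 41 and 38 in the CNV libraries and 74, 124 and 67 in the Untreated libraries, a difference of -1.28 (limma voom, adjusted p = 0.00163). Mmp25, a membrane-anchored enzyme first known from leukocytes, moved the other way, with 0, 5 and 3 reads in the BetP-Gel@Ran libraries, 27, 14 and 13 in the CNV libraries and 4, 0 and 0 in the Untreated libraries. It was higher in CNV than in Untreated libraries, at 3.95 (limma voom, adjusted p = 0.00431), and lower in BetP-Gel@Ran than in CNV libraries, at -2.96 (limma voom, adjusted p = 0.0322). Mmp16, at 32 to 43 reads per library, was called in no comparison.

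Among the remaining metalloproteinases, Mmp19 was at 1.95, 1.35 and 1.77 FPKM in the BetP-Gel@Ran libraries, 3.23, 3.39 and 2.85 FPKM in the CNV libraries and 0.917, 1.00 and 1.32 FPKM in the Untreated libraries, in 3 groups without overlap. It was called in all comparisons: 1.00 ± 0.11 in CNV against Untreated (limma, adjusted p = 0.000155), -0.63 ± 0.11 in BetP-Gel@Ran against CNV (adjusted p = 0.0122) and 0.37 ± 0.11 in BetP-Gel@Ran against Untreated (adjusted p = 0.0322). The fall against CNV was lost without CNV 1 (0.0511) or CNV 2 (0.0501), and the rise against Untreated without BetP-Gel@Ran 1 (0.103) or 3 (0.0965) and without Untreated 1 (0.105) or 2 (0.0874). Mmp23 stood at 10.05, 7.62 and 9.76 FPKM in the BetP-Gel@Ran libraries, 7.66, 7.18 and 9.17 FPKM in the CNV libraries and 12.2, 10.4 and 13.6 FPKM in the Untreated libraries, with the CNV libraries below all Untreated ones. Its fall in CNV was -0.54 ± 0.13 (limma, adjusted p = 0.00877); BetP-Gel@Ran against Untreated gave -0.37 ± 0.13 (adjusted p = 0.0559), which was called without CNV 3 (0.0434) and without Untreated 2 (0.0384). Mmp27 at 1.24 to 2.85 FPKM and Mmp28 (epilysin) at 1.46 to 2.55 FPKM were called nowhere. The enamel protease Mmp20 had at most 3 reads in a library and Mmp21 had 0 in all 9.

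Adamts1, Adamts4 and Adamts5 code for enzymes that cleave the proteoglycans aggrecan and versican. Adamts1 was at 4.22, 5.49 and 4.17 FPKM in the BetP-Gel@Ran libraries, 6.24, 8.59 and 5.16 FPKM in the CNV libraries and 2.78, 3.47 and 3.72 FPKM in the Untreated libraries, with every CNV library above every Untreated one and CNV 2 the highest. It rose by 0.81 ± 0.16 in CNV against Untreated (limma, adjusted p = 0.00367), and BetP-Gel@Ran against CNV was not called, at -0.43 ± 0.16 (adjusted p = 0.109; called without CNV 3, at 0.0313). BetP-Gel@Ran against Untreated gave 0.38 ± 0.16 (limma, adjusted p = 0.105; called without CNV 2, at 0.0463). Adamts5, its neighbour on chromosome 16, had 2.57, 2.98 and 2.76 FPKM in the BetP-Gel@Ran libraries, 3.74, 2.78 and 2.89 FPKM in the CNV libraries and 1.47, 1.60 and 1.56 FPKM in the Untreated libraries. The BetP-Gel@Ran and CNV libraries overlapped, and all were above the Untreated libraries, by 0.57 ± 0.10 for BetP-Gel@Ran (limma, adjusted p = 0.00277) and 0.70 ± 0.10 for CNV (limma, adjusted p = 0.000512). Adamts4 was below the filter, with 13, 6 and 8 reads in the BetP-Gel@Ran libraries, 49, 49 and 34 in the CNV libraries and 5, 6 and 7 in the Untreated libraries. It was 2.63 higher in CNV than in Untreated libraries (limma voom, adjusted p = 0.000348), and BetP-Gel@Ran against CNV gave -2.19 (limma voom, adjusted p = 0.00479). Adamts4 overlaps another gene on the opposite strand, so its few reads are uncertain.

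Other proteoglycan-cleaving members were low. Adamts15 had 83, 115 and 103 reads in the BetP-Gel@Ran libraries, 182, 106 and 110 in the CNV libraries and 58, 70 and 91 in the Untreated libraries and was called higher in CNV than in Untreated libraries, at 0.72 (limma voom, adjusted p = 0.0292); the lowest CNV and the highest Untreated library were close. Adamts8 (4 to 11 reads), Adamts9 (25 to 62 reads) and Adamts20 (5 to 25 reads) were called in no comparison.

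Adamts2, which removes the N-terminal propeptide of fibrillar procollagens, was at 4.16, 3.66 and 4.14 FPKM in the BetP-Gel@Ran libraries, 4.43, 2.72 and 4.25 FPKM in the CNV libraries and 5.74, 4.83 and 6.09 FPKM in the Untreated libraries. Every CNV library and every BetP-Gel@Ran library was below every Untreated library. The fall in CNV was -0.46 ± 0.14 (limma, adjusted p = 0.0255) and was lost without CNV 2, where it was -0.29 (0.0542), without Untreated 1 (0.073) or Untreated 3 (0.0797); BetP-Gel@Ran against Untreated gave -0.39 ± 0.14 (adjusted p = 0.0612), called without CNV 2 (0.0125). The other 2 propeptidases, Adamts3 (37 to 75 reads) and Adamts14 (5 to 42 reads), were called nowhere.

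Adamts10, whose human form is mutated in Weill-Marchesani syndrome, a disorder of lens and stature, had 1.73, 1.80 and 1.61 FPKM in the BetP-Gel@Ran libraries, 2.01, 1.98 and 1.95 FPKM in the CNV libraries and 2.52, 2.77 and 2.45 FPKM in the Untreated libraries. BetP-Gel@Ran and CNV libraries were all below the Untreated ones, at -0.40 ± 0.07 for BetP-Gel@Ran (limma, adjusted p = 0.00352) and -0.27 ± 0.07 for CNV (limma, adjusted p = 0.0161), the second of which was lost without Untreated 2 (0.0581) and with own-total scaling (0.0797). Its relative Adamts17, also a gene of that group of human disorders, had 54, 57 and 35 reads in the BetP-Gel@Ran libraries, 13, 24 and 24 in the CNV libraries and 52, 69 and 46 in the Untreated libraries. It was lower in CNV than in Untreated, at -1.62 (limma voom, adjusted p = 0.00186), and higher in BetP-Gel@Ran than in CNV libraries, at 1.37 (limma voom, adjusted p = 0.0214). Adamts18, with 23, 47 and 20 reads in the BetP-Gel@Ran libraries, 12, 10 and 17 in the CNV libraries and 39, 56 and 47 in the Untreated libraries, was lower in CNV than in Untreated libraries, at -1.98 (limma voom, adjusted p = 0.00127). Adamts6, with 21, 26 and 29 reads in the BetP-Gel@Ran libraries, 52, 46 and 27 in the CNV libraries and 19, 17 and 21 in the Untreated libraries, was higher, at 0.93 (limma voom, adjusted p = 0.0441). Adamts7 (6 to 24 reads), Adamts12 (49 to 177 reads) and Adamts16 (45 to 125 reads) were called in no comparison, and Adamts13, the protease of von Willebrand factor, and Adamts19 had at most 3 and 7 reads in a library.

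Of the 26 members below the filter, 20 had a mean of at least 5 reads per library and were tested on recovered reads, a test added after the data were examined. Mmp8 and Mmp25 reached that mean only through the CNV libraries. Mmp8 had 14, 333 and 5 reads summed over the BetP-Gel@Ran, CNV and Untreated libraries, and Mmp25 had 8, 54 and 4. The counts that follow therefore describe the members tested and not the family. In CNV against Untreated 6 were called higher and 5 lower, in BetP-Gel@Ran against CNV 2 higher and 3 lower, and in BetP-Gel@Ran against Untreated 0 higher and 1 lower. Over all 18520 genes tested in this way the shares were 20.9% higher and 20.3% lower, 5.96% and 7.53%, and 14.0% and 14.6% in the same comparisons.

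**Figure D4:**
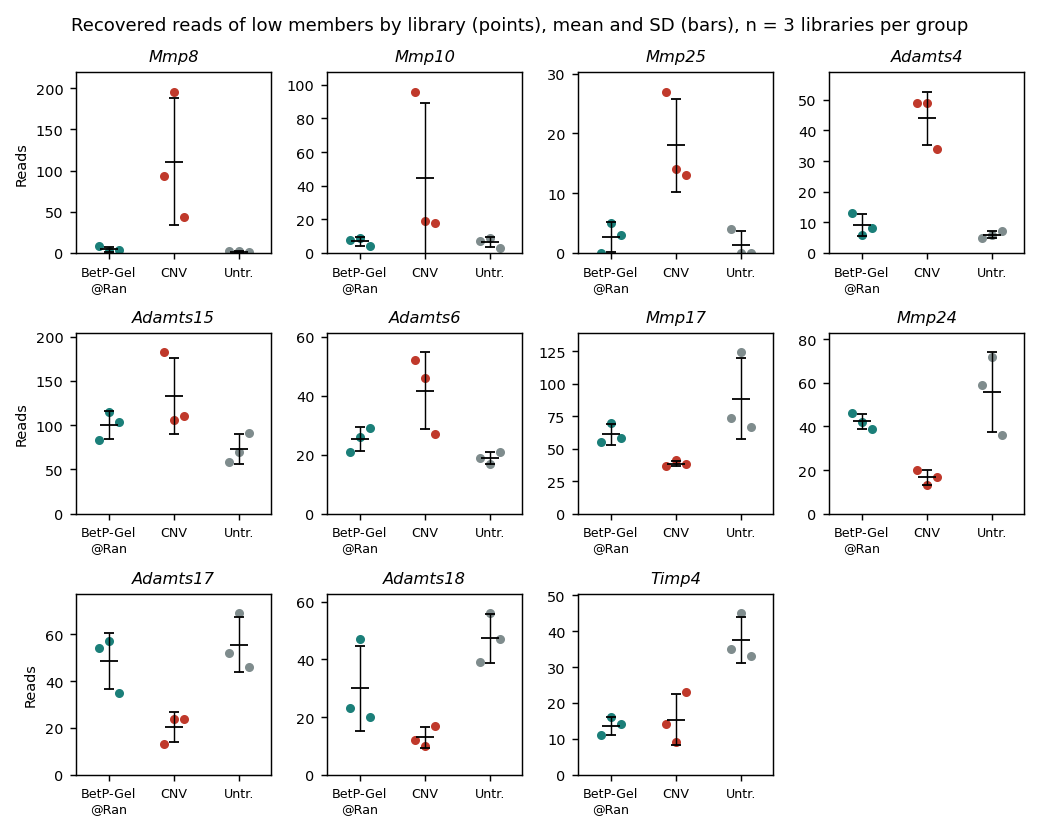
Recovered reads in each library (points), with mean and SD (black bars, 3 libraries per group), for the 11 members below the filter that were called in CNV against Untreated, each panel on its own axis from 0. The means of the upper row and of Adamts15 and Adamts6 are highest in CNV, but CNV and BetP-Gel@Ran libraries overlap for Adamts15 and Adamts6. Mmp17, Mmp24, Adamts17 and Adamts18 are lowest in CNV, and Timp4 is low in both BetP-Gel@Ran and CNV.

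Side by side on chromosome 9 lie 9 members, in the order Mmp13, Mmp12, Mmp1b, Mmp3, Mmp10, Mmp8, Mmp27, Mmp20 and Mmp7, within 427 kb (mm10 chr9:7272514-7699585). Of the 6 that could be tested on reads, 5 were called higher in CNV than in Untreated libraries (limma voom), and Mmp27, the next gene after Mmp8, was not, at -0.10 log2 units (adjusted p = 0.791). Over all 18520 genes tested on reads, 20.9% were called higher in this comparison. Mmp8 had enough reads to be tested only through the CNV libraries. Levels of the cluster genes ranged over the whole family, as Mmp3 lay at 46.2 to 123 FPKM and Mmp8 at 0.0255 to 4.61 FPKM.

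**Figure D5:**
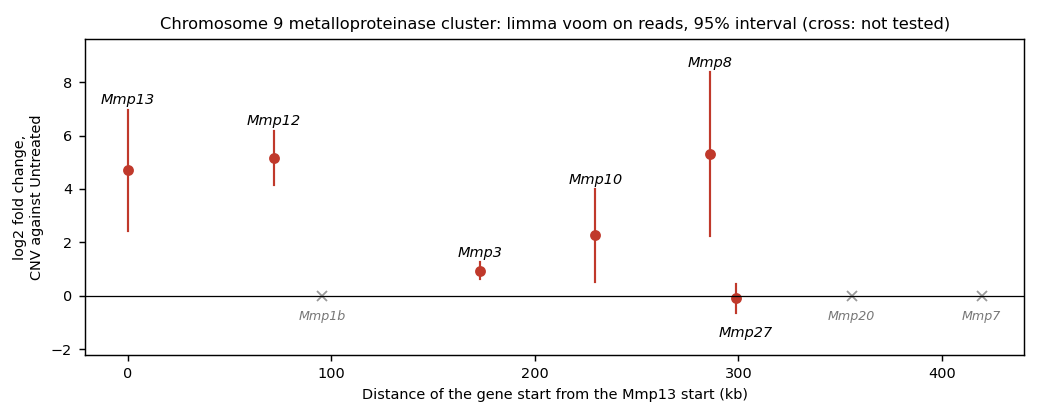
Log2 fold change of CNV against Untreated on recovered reads (limma voom) with its 95% interval for the members of the chromosome 9 cluster, placed by the distance of the gene start from that of Mmp13. Crosses mark 3 genes with too few reads to be tested; Mmp13, Mmp12, Mmp3, Mmp10 and Mmp8 lie above 0 and the interval of Mmp27 spans it.

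The promoters of this cluster are shown because several of its genes were called higher in CNV than in Untreated libraries. Metalloproteinase promoters are also known for a binding site of AP-1, a transcription factor made of Fos and Jun proteins. In BetP-Gel@Ran against CNV the genes did not move alike: on reads Mmp13, Mmp12 and Mmp8 were called lower, and Mmp3 and Mmp10 were not called. RefSeq sequences (GRCm38.p6) of 250 bases before to 50 after the start site were matched to 31 of the 45 members, with 34 promoters. The AP-1 letters TGAGTCA, searched on both strands, were in 6 of those 34 promoters (17.6%) and in 5.2% of 32851 promoters of all genes. All 6 genes, Mmp13, Mmp12, Mmp3, Mmp10, Mmp1b and Mmp7, were among the 9 of the cluster, and 0 of 22 other matched members had a match. The letters TATAAA, searched on the strand of the gene, were in 26.5% of member promoters and in 8.32% of all promoters. The letters AGGAAG, listed as PEA3, were also searched, and were in 44.1% of member promoters and in 35.4% of all promoters. Each sequence below runs 5′ to 3′ on the plus strand over 120 bases, the last 10 of which follow from the RefSeq start; capitals mark TGAGTCA or its reverse complement TGACTCA and TATAAA, which do not overlap each other. They cover chr9:7272404-7272523 for Mmp13, chr9:7347264-7347383 for Mmp12, chr9:7445712-7445831 for Mmp3, chr9:7502232-7502351 for Mmp10 and chr9:7558319-7558438 for Mmp8.
Mmp13: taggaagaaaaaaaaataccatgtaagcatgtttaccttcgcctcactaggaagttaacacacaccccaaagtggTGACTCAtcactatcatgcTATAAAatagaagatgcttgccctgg
Mmp12: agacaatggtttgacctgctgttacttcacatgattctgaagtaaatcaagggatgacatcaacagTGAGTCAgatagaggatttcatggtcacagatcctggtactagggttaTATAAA
Mmp3: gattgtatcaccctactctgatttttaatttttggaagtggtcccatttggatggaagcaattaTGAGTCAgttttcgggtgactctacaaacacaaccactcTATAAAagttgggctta
Mmp10: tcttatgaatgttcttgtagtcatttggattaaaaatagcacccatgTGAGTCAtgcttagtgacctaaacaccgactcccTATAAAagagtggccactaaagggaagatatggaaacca
Mmp8: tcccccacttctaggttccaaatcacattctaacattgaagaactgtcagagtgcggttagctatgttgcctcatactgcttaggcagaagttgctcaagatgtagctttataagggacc

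The AP-1 letters began 35 bases before the start in Mmp13, 44 in Mmp12, 46 in Mmp3 and 63 in Mmp10. The marked TATAAA began 16 bases before the start in Mmp13, 7 in Mmp3 and 29 in Mmp10, and after the start in Mmp12. All these distances are measured from the RefSeq starts and hold only for them. The Mmp12 sequence belongs to a RefSeq start 2993 bases downstream of the gene start in the deposited table; the other RefSeq promoter of Mmp12, whose start is 16 bases from that gene start, did not hold the AP-1 letters. Mmp8 had no such letters in its window although its reads were higher in CNV, and Mmp7 had them with 0 to 4 reads per library. The window of Timp1 held none either. A match is a description of letters, and binding was not measured.

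Other genes of proteolysis outside the cell were counted from lists chosen with earlier results of these data known. The plasminogen system, whose product plasmin activates several metalloproteinase proforms, had 7 tested genes of 10: 4 were higher and 0 lower in CNV against Untreated, 0 and 5 in BetP-Gel@Ran against CNV, and 1 and 1 in BetP-Gel@Ran against Untreated. Plat, tissue plasminogen activator, averaged 5.36 ± 0.112 FPKM in BetP-Gel@Ran libraries, 10.2 ± 0.835 FPKM in CNV libraries and 3.12 ± 0.227 FPKM in Untreated libraries (mean ± SD, n = 3). It rose by 1.44 ± 0.08 in CNV against Untreated (limma, adjusted p = 6.49e-06) and was lower in BetP-Gel@Ran than in CNV, at -0.81 ± 0.08 (limma, adjusted p = 0.000978). Plaur, the urokinase receptor, averaged 1.14 ± 0.387 FPKM in BetP-Gel@Ran libraries, 6.71 ± 2.88 FPKM in CNV libraries and 0.551 ± 0.0834 FPKM in Untreated libraries, and rose by 2.24 ± 0.25 in CNV against Untreated (limma, adjusted p = 0.000163).

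A list of ADAM genes had 7 tested genes of 11. Among them are sheddases, membrane relatives that release proteins from the cell surface, but the list was not limited to sheddases. In CNV against Untreated 6 were higher, Adamdec1 among them, and 1 lower. The counts were 0 and 3 in BetP-Gel@Ran against CNV, and 4 and 0 in BetP-Gel@Ran against Untreated. Adam8, a leukocyte sheddase, averaged 0.811 ± 0.235 FPKM in BetP-Gel@Ran libraries, 8.77 ± 3.34 FPKM in CNV libraries and 0.282 ± 0.102 FPKM in Untreated libraries, with 2.87 ± 0.24 in CNV against Untreated and -2.37 ± 0.24 in BetP-Gel@Ran against CNV (limma, adjusted p = 3.41e-05 and 0.00134). Adam9 and Adam17, the tumour necrosis factor convertase, rose by 0.74 ± 0.09 and 0.68 ± 0.10 in CNV against Untreated (limma, adjusted p = 0.000195 and 0.000541). Of 3 tested ADAMTS-like genes of 7, which code for proteins without a protease domain, 0 were higher and 1, Adamtsl5, lower in CNV against Untreated, at -0.26 ± 0.08 (limma, adjusted p = 0.0256), and 0 were called in the other comparisons. Among 14 tested of 19 partners, activators and other inhibitors, 6 were higher and 4 lower in CNV against Untreated, 1 and 4 in BetP-Gel@Ran against CNV, and 2 and 3 in BetP-Gel@Ran against Untreated. Itgav, the integrin alpha V chain, rose by 1.13 ± 0.08 and Lrp1, a receptor that takes up proteases and their inhibitors, by 0.88 ± 0.11 in CNV against Untreated, and Spock3, a testican, fell, at -1.11 ± 0.16 (limma, adjusted p = 1.72e-05, 0.000288 and 0.000668).

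Markers of other cells differed between the groups to unlike degrees. In CNV against Untreated, 0 of 7 tested endothelium genes were higher and 0 lower. Of 6 tested pericyte and smooth muscle genes 0 were higher and 1 lower. Of 8 retinal pigment epithelium genes 1 was higher and 0 lower, and of 8 Muller glia genes 3 were higher and 1 lower. The 11 neutrophil genes summed to 39.3, 30.4 and 159.9 FPKM in BetP-Gel@Ran, 692, 1011 and 476 FPKM in CNV and 38.5, 55.5 and 34.7 FPKM in Untreated libraries. All 7 tested ones were called higher in CNV than in Untreated and lower in BetP-Gel@Ran than in CNV libraries; Mpo was at 0 in all 9 libraries, Elane at 0 in 8, and Ly6g at 0.968 FPKM or less. The 12 macrophage and microglia genes summed to 994, 785 and 997 FPKM in BetP-Gel@Ran, 1849, 2142 and 1454 FPKM in CNV and 366, 391 and 404 FPKM in Untreated libraries, with 12 of 12 higher in CNV than in Untreated, 7 lower in BetP-Gel@Ran than in CNV and 12 higher in BetP-Gel@Ran than in Untreated. Within the CNV group, CNV 2 had the highest and CNV 3 the lowest value of both sums, and likewise of Timp1, Mmp9, Mmp8, Mmp19 and Adamts1, a likeness seen after the values were known and over 3 libraries. Of the 11 members called higher in CNV, 4 had this order and 7 did not: Mmp12, Mmp13, Mmp3, Mmp14, Mmp15, Adamts5 and Mmp11. Mmp13 and Mmp14, for example, were highest in CNV 1, and Mmp3 in CNV 3. Mast cell genes summed to 62.9, 65.3 and 66.4 FPKM in BetP-Gel@Ran, 73.1, 61.3 and 75.2 FPKM in CNV and 35.9, 44.3 and 34.5 FPKM in Untreated libraries, with 5 of 6 higher in BetP-Gel@Ran and 4 of 6 higher in CNV, both against Untreated. In bulk samples fewer cells of a type and less RNA per cell cannot be told apart, and the part of leukocytes in the differences of the members was not tested.

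Markers of fibroblasts and sclera summed to 852, 942 and 1083 FPKM in BetP-Gel@Ran, 834, 638 and 797 FPKM in CNV and 1349.7, 1199.7 and 1388 FPKM in Untreated libraries, with 5 of 10 lower in CNV than in Untreated and 3 of 10 lower in BetP-Gel@Ran than in Untreated. Skeletal muscle markers summed to 1258, 1253 and 1090.4 FPKM, 855, 738 and 1272 FPKM and 4598, 4244 and 4855 FPKM in the libraries of those groups, with 7 of 7 tested ones lower in BetP-Gel@Ran and in CNV than in Untreated. Rod photoreceptor markers summed to 1706, 1897 and 1352 FPKM, 1254, 1014 and 1235 FPKM and 3884, 3477 and 2818 FPKM, with 7 of 8 lower in both. Genes of corneal and surface epithelium summed to 15492, 12706 and 14044 FPKM, 9205, 10177 and 10181 FPKM and 20589.5, 17780.3 and 18211 FPKM in the same groups; of 8, 3 were lower and 1 higher in CNV against Untreated, and 3 were higher and 1 lower in BetP-Gel@Ran against CNV. In CNV against Untreated, 4 of 19 tested members (Mmp23, Adamts2, Adamts10 and Timp3) were called lower, beside 22.1% of all tested genes. In BetP-Gel@Ran against Untreated only Adamts10 was called lower, beside 18.1% of all tested genes. The part of the markers in those differences was not tested.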

How the data were processed

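Poly-A RNA-seq libraries of 9 samples were made with a NEBNext Ultra kit, per the labels' protocols, which does not mark the strand. The authors deposited 1 table of FPKM per gene; reads were counted with HTSeq 0.6.0 on mm10, per the submitters' processing notes, and for the aligner, none is given in the sources used here. Within a library, FPKM times gene length came in even steps for 100% of values (tolerance 0.05 of a step), which gave back the reads.

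The main test was limma 3.58.1 (R 4.3.3) on log2(FPKM + 1) (trend and robust options, two-sided, Benjamini-Hochberg within each comparison, 1 mean per group over all 9 libraries, no covariate), for genes at 1 FPKM or more in at least 3 libraries. Exact tests of 3 against 3 libraries cannot go below p = 0.10 and were not used. The script was tested on simulated data. Limma voom on the recovered reads was an alternative, and voom on genes with a mean of at least 5 reads was added after the data were examined; it called 3874 genes higher and 3751 lower in CNV against Untreated. The other alternatives were no filter, a 5 FPKM filter, a pseudocount of 0.1, own-total scaling, 2 groups only, no trend and robust options, a replicate block and each library left out.

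Members and lists were chosen with earlier results of these data known. Values per library are given for called members, all Timp genes, Mmp2, Mmp9 and Mmp14, and up to 3 genes with the smallest p per list are named; low members with few reads were added. Positions are those of the deposited table, equal to GENCODE M21 for 44 of 45 members. Promoter sequences are from RefSeq (GRCm38.p6).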

Additional observations from a re-analysis of the deposited data

How the results depend on the processing

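Of 28 called results for single members, 18 kept their call and direction under every alternative they could be computed in, 10 lost the call in at least 1 and 0 changed direction; the adjusted p-values without a library are given beside each gene. The limma calls were lost with no filter for Adamts2 in CNV against Untreated (adjusted p = 0.0552), Mmp9 in BetP-Gel@Ran against CNV (0.0679) and Mmp19 (0.0658), Mmp12 (0.0523) and Mmp11 (0.0513) in BetP-Gel@Ran against Untreated. With only the groups compared the same results had adjusted p-values in limma of 0.052, 0.0556, 0.0512, 0.0503 and 0.0564. In BetP-Gel@Ran against Untreated that limma fit gained calls. Timp1 (adjusted p = 0.0166), Timp2 (0.0497) and Adamts1 (0.0474) were then higher and Adamts2 (0.0173) lower. Own-total scaling took Adamts2 in CNV against Untreated to 0.0509, and voom took Mmp9 in BetP-Gel@Ran against CNV to 0.061 and Mmp11 in BetP-Gel@Ran against Untreated to 0.0538. In CNV against Untreated, members called lower numbered 8 with no filter and 1 with own-total scaling; with a filter of 5 FPKM, which tests fewer genes, 5 members were higher, 2 lower, and 1735 genes higher; voom on a mean of at least 5 reads, which tests more genes, gave 17 higher and 9 lower members. In BetP-Gel@Ran against CNV, no filter gave 263 genes higher and 590 lower, the filter of 5 FPKM 2 members lower, the fit of only these groups 537 genes higher and 652 lower, and voom on a mean of at least 5 reads 2 members higher. In BetP-Gel@Ran against Untreated, members called lower numbered 2 with no filter or with only these groups, 3 with voom and 4 with voom on a mean of at least 5 reads, and the filter of 5 FPKM gave 2 members and 1337 genes higher. Members tested numbered 44 with no filter and 9 with the filter of 5 FPKM. Voom on a mean of at least 5 reads tested 39 members and 18520 genes. Of those genes 20.9% were higher and 20.3% lower in CNV against Untreated, and 5.96% and 7.53% in BetP-Gel@Ran against CNV. In BetP-Gel@Ran against Untreated the shares were 14.0% and 14.6%. Own-total scaling moved the median of all genes by less than 0.1 log2 units. Where no construction is named, the cause was not tested.

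With 1 library left out, in CNV against Untreated 10 to 12 members were higher and 2 to 4 lower, with 2593 to 3127 genes higher and 2513 to 3075 lower. In BetP-Gel@Ran against CNV 0 members were higher and 3 to 7 lower, with 126 to 1457 genes higher and 320 to 1758 lower. In BetP-Gel@Ran against Untreated 3 to 7 members were higher and 1 to 2 lower, with 1438 to 2482 genes higher and 1760 to 2647 lower.

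Deviations of same-numbered libraries correlated between -0.148 and 0.0841 over genes, and those of differently numbered libraries between -0.191 and 0.171. With 3 libraries per group these values cannot settle whether the replicate number pairs the samples. With the number as a block, 523 genes were higher in BetP-Gel@Ran against CNV, and 5 members were lower in BetP-Gel@Ran against Untreated, where Timp3, Mmp23, Mmp15 and Adamts2 were then called and Mmp19 (limma, adjusted p = 0.0575) and Mmp11 (0.0629) were not.

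Genes of under about 10 reads per library, and members that overlap a gene on the other strand, are limited by depth and by the unstranded kit.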

Other observations

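Substrates of the family and the cathepsins, lysosomal proteases that also act outside the cell, are given as values. Of 10 tested cathepsin and cystatin genes 6 were higher and 1 lower in CNV against Untreated, 0 and 6 in BetP-Gel@Ran against CNV, and 2 and 1 in BetP-Gel@Ran against Untreated. Ctss, cathepsin S of macrophages and microglia, averaged 90.2 ± 14.4 FPKM in BetP-Gel@Ran libraries, 185 ± 51.1 FPKM in CNV libraries and 32.9 ± 1.60 FPKM in Untreated libraries (mean ± SD, n = 3), and rose by 2.42 ± 0.18 log2 units in CNV against Untreated (limma, adjusted p = 1.84e-05). Ctsd averaged 203 ± 33.3 FPKM in BetP-Gel@Ran libraries, 557 ± 159 FPKM in CNV libraries and 159.5 ± 10.3 FPKM in Untreated libraries, with 1.76 ± 0.19 in CNV against Untreated and -1.42 ± 0.19 in BetP-Gel@Ran against CNV (limma, adjusted p = 0.000116 and 0.00484).

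Of the hyalectans, the proteoglycans cut by Adamts1, Adamts4 and Adamts5, versican (Vcan) was the only listed gene tested, and it rose by 0.64 ± 0.14 in CNV against Untreated and was lower in BetP-Gel@Ran than in CNV, at -0.49 ± 0.14 (limma, adjusted p = 0.00481 and 0.0448). Among 11 tested collagen genes, 1 was higher and 3 lower in CNV against Untreated, 0 and 1 in BetP-Gel@Ran against CNV, and 0 and 3 in BetP-Gel@Ran against Untreated. Col1a1 averaged 40.6 ± 6.31 FPKM in BetP-Gel@Ran libraries, 34.3 ± 12.7 FPKM in CNV libraries and 123 ± 9.92 FPKM in Untreated libraries, with -1.86 ± 0.21 in CNV against Untreated and -1.58 ± 0.21 in BetP-Gel@Ran against Untreated (limma, adjusted p = 0.000179 and 0.000923). Col1a2 averaged 35.4 ± 4.28 FPKM in BetP-Gel@Ran libraries, 27.7 ± 6.63 FPKM in CNV libraries and 93.5 ± 6.75 FPKM in Untreated libraries, with -1.74 ± 0.16 and -1.38 ± 0.16 in the same comparisons (limma, adjusted p = 4.47e-05 and 0.000327).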
